A study of Mus musculus with 30 samples.

Results

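The cytosolic ribosomal protein genes were followed across 30 bulk RNA-seq libraries of a mouse embryonic fibroblast line labelled NIH3T3-CG. The members were the protein-coding genes whose symbol begins with Rpl or Rps and a digit, together with Rpsa, Rplp0, Rplp1, Rplp2 and Fau. They numbered 78 of the 36047 genes for which counts could be summed, 46 in the large subunit and 32 in the small subunit, and all 78 were abundant enough to be tested in every comparison. A further 25 protein-coding genes with names of the family, such as the S6 kinases, retrocopies and Rps19bp1, were kept apart and are described near the end.

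The series had 10 groups of 3 libraries from 4 experiments. In the first, cells labelled as transduced with Prrx1 were compared with and without Doxycycline, so that the agent and the factor it induces cannot be told apart. In the other experiments cells received the factor Prrx1 or Snai1 (with 1 shared control group), Egr1 or Jun (1 shared control group) or Srebf2 (its own control group). The labels call these groups TF samples and name their comparison groups only as control, without saying what the control cells received; the word transfection is used here to tell these experiments from the transduction. All groups were the same cell line, released with trypsin from 6-well plates before total RNA was extracted. Nothing in the labels says that the 3 libraries of a group came from separate cultures, so every p-value rests on library-to-library spread, and part or all of that spread may be technical.

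A eukaryotic ribosome has a small subunit, which reads the messenger RNA, and a large subunit, which forms the peptide bond, and each holds 1 copy of most of its proteins. The cell makes these proteins in matched amounts, and their mRNAs share a run of pyrimidines at the very 5′ end, the TOP motif, through which the TOR pathway controls their translation. In growing fibroblasts they are among the most abundant mRNAs. The mouse genome also carries a large number of retrocopies of these genes, made when a spliced ribosomal protein mRNA was copied back into the genome, and reads from a gene and from a recent retrocopy are hard to assign.

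Both features can be seen in the sequences. The following stretches surround the start site of genes on which the later results turn, on the gene's strand, from RefSeq (build GRCm38.p6), with the longest run of at least 7 C or T bases lying in the 20 bases around the start site in capitals.
Rps24, chr14:24490663-24490692, plus strand: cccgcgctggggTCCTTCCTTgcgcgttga
Rps9, chr7:3704026-3704055, plus strand: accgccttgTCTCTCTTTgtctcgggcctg
Rpl18, chr7:45718056-45718085, plus strand: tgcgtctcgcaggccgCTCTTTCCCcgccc
Fau, chr19:6057932-6057961, plus strand: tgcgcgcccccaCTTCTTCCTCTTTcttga
Rpl28, chr7:4792950-4792979, plus strand: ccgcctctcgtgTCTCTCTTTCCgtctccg
Rps16, chr7:28350674-28350703, plus strand: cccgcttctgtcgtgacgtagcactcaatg
Rpl11, chr4:136053379-136053408, minus strand: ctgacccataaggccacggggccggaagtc
The windows of Rps16 and Rpl11 held no such run. Of the 58 members found in the RefSeq table, 26 (44.8%) had a run at 1 or more of their listed start sites, against 14.2% of the 27025 genes in the table. Only the gene's own strand was searched. A window without a run says only that these letters were not within it.

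The second set shows a member above its most counted near copy, over 60 bases of the coding part, with differing bases in capitals (GENCODE M21 transcripts, build mm10). Rpl3, a large subunit protein near the peptidyl transferase centre, lies at chr15:80077791-80091868 on the minus strand, and the annotated pseudogene Rpl3-ps1 at chrX:13202571-13203780 on the plus strand. Over the 1209 coding bases of Rpl3 the pair differed at 2.
Rpl3: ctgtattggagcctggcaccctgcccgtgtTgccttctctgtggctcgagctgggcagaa
Rpl3-ps1: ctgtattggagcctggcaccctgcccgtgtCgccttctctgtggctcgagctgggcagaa
Rps2, at chr17:24718116-24721929 on the plus strand, was aligned with Rps2-ps13, at chrX:52898588-52899469 on the plus strand, over 882 bases, of which 7 differed.
Rps2: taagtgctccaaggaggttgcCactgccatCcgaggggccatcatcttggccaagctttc
Rps2-ps13: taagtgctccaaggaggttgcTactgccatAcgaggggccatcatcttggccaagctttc
Rpl12 and Gm10275 were identical over 495 bases, Rpl5 and Gm15500 over 891, and Rps12 and Rps12-ps3 over 384.

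The libraries held 7996355 to 37068611 estimated counts, and those of the doxycycline experiment were the shallowest. The delivered factor was higher in every library of its group than in any control library, from 3.86-fold for Prrx1 with doxycycline to 123-fold for Snai1. The 8 fibroblast markers had a summed level of 8187 to 13415 TPM (transcript abundance per length, scaled to the library) and all averaged over 1 TPM in the transfection groups; in the doxycycline experiment 7 did, and Lum was at 0.0578 to 0.837 TPM. The immune, endothelial and neural lists summed to at most 35.8 TPM, and the epithelial list to at most 9.75 TPM in 29 libraries and to 182 TPM in Egr1 library 3. Library 1 of the Prrx1/Snai1 control stood apart from the other 2 of its group, as did library 1 without doxycycline and, in epithelial markers, Egr1 library 3, and results that change without them are given below.

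The members differed widely in level. Compared per length, in TPM averaged over the 10 groups, Rpl13a was highest at 4967, followed by Rpl41 at 4649, Rplp1 at 4261, Rps6 at 4051 and Rpl38 at 3668. Rps6 is the small subunit protein phosphorylated by the S6 kinases, and Rpl41 encodes the smallest ribosomal protein. The lowest levels were those of Rps2 at 11.9, Rps18 at 56.9, Rpl5 at 88.9, Rpl34 at 106 and Rpl12 at 135, beside a median of 1499.5 TPM over the 78 members. The proteins encoded by the highest and the lowest of these genes are both needed in each ribosome.

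Each of the lowest members had near copies that took most of the reads. A near copy was counted as any other gene with at least 50% of its 31-base words found in a member's transcripts; there were 310, of which 299 are annotated as pseudogenes, and 70 of the 78 members had at least 1. Rps2 itself held 0.216% of the counts summed over it and its 17 copies, with a mean of 117 counts per library against 36502 for Rps2-ps13. Rps18 held 2.79%, Rpl5 5.49%, Rpl12 7.33% and Rpl34 14%. For these genes the level listed under the member's name is therefore a small part of the reads that match it.

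The split between a member and its copies was uneven across the family and across libraries. In 41 members the gene held at least 95% of the sum, and in 15 it held less than 50%. Rpl29 ranged from 1.67% to 88.6% between libraries, Rps7 from 5.35% to 54.7% and Rpl10 from 12.3% to 83.2%. The median share of a member's 31-base words found in no other gene was 74.1%, from 5.95% in Rpl36 up to 99.0%. Only 12 members reached 90%, among them Rpl8, Rpl39, Rpl41, Rps3, Rps19, Rps20 and Rps24, and values of the other 66 are uncertain to the extent that reads could be assigned to a copy. Reaching 90% did not free a member from this. Rpl35a (92.4% unique) and Rpl30 (90.6%) held only 36.9% and 39.5% of the counts summed with their copies.

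Some of the variation of single members between experiments went with this split. Measured as the SD of log2 group means of CPM (counts scaled to the library's total) over the 10 groups, Rpl29 varied most (1.95), followed by Rps26 (1.83), Rpl37 (1.65), Rpl27 (1.55) and Rps21 (1.53). With the copies' counts added the SD was 0.27 for Rpl29, 1.01 for Rps26, 1.27 for Rpl37, 1.01 for Rpl27 and 1.53 for Rps21, so the spread of Rpl29 shrank most and that of Rps21 did not. The first division was between the doxycycline experiment and the rest: Rpl29 was at 753 TPM with and 1461 TPM without doxycycline and at 19.6 to 32.1 TPM in the other 8 groups. Rps26, Rpl37, Rpl27 and Rps21 had the opposite order; Rps21, for example, was at 183 and 286.5 TPM in the doxycycline experiment and at 2855 to 5070 TPM elsewhere. Over the 8 transfection groups alone the median SD was 0.20, and 0.18 with copies.

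Of the members with special roles, Rplp0, the base of the stalk that recruits elongation factors, averaged 3443 TPM, and its partners Rplp1 and Rplp2 4261 and 2238. Rpsa, which is also known as a laminin receptor precursor, averaged 2075 TPM. Fau and Rps27a are made as fusions with a ubiquitin-like protein and with ubiquitin, and averaged 2521 and 1504 TPM. Rpl5 and Rpl11, which with the smallest ribosomal RNA form a particle that binds Mdm2, were at 88.9 and 1014 TPM. These levels cannot be read as a ratio of the mRNAs, since Rpl5 held only 5.49% of the counts of its copy group. Rpl11 ran from 127 TPM with doxycycline to 1453 TPM in the Srebf2 control.

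Together the members took a larger share of all counts in the transfection experiments than in the doxycycline experiment. These experiments also differed in depth and in fragment length (transcript length less effective length). Fragments were 161 to 188 bases in the doxycycline experiment and 221 to 286 bases in the others. The part of either in the share was not tested. The share was 2.64%, 2.58% and 2.45% in the libraries with doxycycline and 3.33%, 2.34% and 2.73% in those without, and these groups overlapped. It was 5.27%, 4.34% and 4.52% in the Prrx1/Snai1 control, 4.82% ± 0.15 (SD, n = 3) with Prrx1 and 4.97% ± 0.06 with Snai1, and both sets of factor libraries lay inside the range of the control. The Jun/Egr1 control was at 4.19% ± 0.15, with 4.18% ± 0.11 in Egr1 and 4.13% ± 0.16 in Jun. As a share of TPM, which divides by length, the members were at 13.3%, 12.9% and 13.7% in that control and at 14.4%, 14.4% and 13.8% with Egr1, without overlap, and at 13.7%, 14.5% and 14.0% with Jun, which met the control at one end.

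The Srebf2 control libraries were at 4.78%, 5.24% and 4.93%, and the Srebf2 libraries at 4.51%, 4.61% and 4.78%, so the groups met at one end. As a share of TPM they were at 15.3%, 16.3% and 15.4% in the control and at 14.2%, 14.4% and 14.7% with Srebf2, without overlap. The ratio of large to small subunit counts stayed between 1.49 and 1.65 as a group mean, and its highest group was the one without doxycycline. The copies alone held 0.92% to 1.5% of counts as a group mean. With the copies added, the share was 6.42% in the Srebf2 control and 6.13% with Srebf2. Because these are bulk libraries, fewer cells with high levels and less RNA per cell cannot be told apart.

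**Figure D1:**
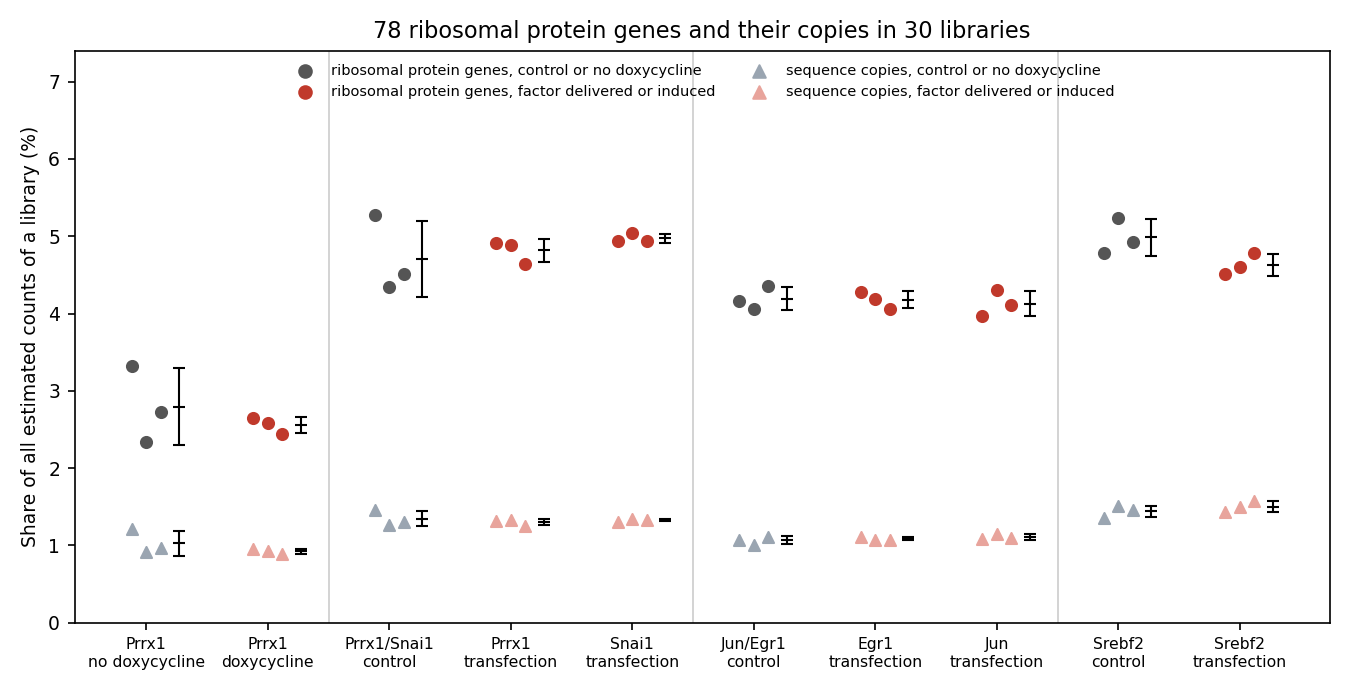
Share of all estimated counts assigned to the 78 members in each library, in percent, by group; circles are the members and triangles their near copies in single libraries, red where a factor was delivered or induced, and black marks are the group mean with its SD. The 6 libraries of the doxycycline experiment lie between 2.34% and 3.33% and the 24 transfection libraries between 3.97% and 5.27%. Depth and fragment length also differed between these experiments, and their part was not tested.

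The files give transcripts, so the kind of transcript could be described as well. The members had 482 annotated transcripts, of which 225 were coding, 173 retained an intron, 61 were processed transcripts without a reading frame and 23 were targets of nonsense-mediated decay. Per member a median of 3.02% of TPM lay on the kinds that do not code, and in 42 members it was under 5%. It was over 50% in 12 members, with Rps26 at 99.5%, Rps18 at 89.1%, Rps20 at 85.7%, Rpl12 at 81.3%, Rps16 at 78.8% and Rps7 at 69.6%. Of these 12, Rps18, Rpl12, Rps7, Rpl3, Rps2, Rps12 and Rpl5, for example, were also among those that held less than 50% of the counts of their copy group. How far these transcript estimates hold intron-retaining RNA was not tested.

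The first comparison asked whether inducing Prrx1 with doxycycline changed the members. Most estimates were negative, 70 of 78, but few members passed the test: 2 fell, Rpl28 and Rpl11, and none rose by edgeR's quasi-likelihood test (Benjamini-Hochberg adjusted p under 0.05 over 13633 genes), where 6.19% of all tested genes passed (3.45% higher, 2.74% lower). Rpl28, of the large subunit, was at 221, 242 and 211 CPM without and at 146, 152 and 156 CPM with doxycycline. These groups did not overlap, and the fitted level was 1.48-fold lower (log2 -0.57, SE 0.08, edgeR adjusted p = 0.0013). Rpl28 also fell with its copies counted in (log2 -0.64, adjusted p = 0.0114).

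Rpl11 was at 78.7, 56.3 and 74.2 CPM without and at 46.5, 48.2 and 38.6 CPM with doxycycline. The groups did not overlap, and it fell 1.58-fold (edgeR adjusted p = 0.0172), but not with copies added (log2 -0.77, adjusted p = 0.279), and it kept its call in 2 of 6 fits that left out a library. The median member was at log2 -0.27 (large -0.29, small -0.26), beside -0.01 over all genes and -0.20 over the 454 other coding genes with transcripts under 1000 bases. This limit was set on the longest transcript of those other genes and was not applied to the members. Rpl3, for example, has an annotated transcript of 1877 bases. Without library 1 of the cells without doxycycline the members' median was -0.01. In 12 of the 78 members the groups did not overlap, against 25.4% of all genes.

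Fragment length moved with these groups. The mean fragment length that kallisto used, read as the difference of transcript length and effective length, was 186 to 188 bases with and 161 to 174 bases without doxycycline, and its part in the result was not tested. The stalk genes, Rpsa, Fau, Rps27a and Rpl5 did not pass: Fau, for example, was at 731, 450.2 and 745 CPM without and 447, 366 and 429.8 CPM with doxycycline (log2 -0.63, adjusted p = 0.139), and the highest library with doxycycline lay just under the lowest without. Rps28 had the lowest estimate, log2 -1.10 with an SE of 0.80.

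Transfection of Prrx1 changed 14 members, 9 higher and 5 lower, where 3% of the 13110 genes tested passed (1.94% higher, 1.06% lower). Those that rose included Rps16 of the small subunit and Rpl3, Rpl35a and Rpl34 of the large subunit; Rps24 of the small subunit and Rpl39, Rpl15, Rpl21 and Rpl6 of the large subunit fell. Rps24, whose human gene is mutated in Diamond-Blackfan anaemia, was at 764, 709.8 and 701 CPM in the control and at 501, 508 and 484 CPM with Prrx1. Every Prrx1 library was below every control library, and Rps24 fell 1.46-fold (log2 -0.54, SE 0.06, edgeR adjusted p = 0.0006). Its 31-base words were 92.1% unique, and its call held in all 6 fits without a library. Its 1 near copy averaged 0.361 counts a library, too few for the copies to move its value. Its coding transcript of 519 bases was at 2139 TPM ± 41.6 (SD, n = 3) in the control and 1249 TPM ± 85.9 with Prrx1.

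Rpl3 was at 283, 196 and 197 CPM in the control and at 341, 364 and 349 CPM with Prrx1, with no overlap, and rose 1.56-fold (log2 0.64, SE 0.12, edgeR adjusted p = 0.0128). Its near copy Rpl3-ps1 was at 1355, 1233 and 1274 CPM in the control and at 1159, 1247 and 1137 CPM with Prrx1, and these groups overlapped (log2 -0.12, adjusted p = 0.324). The sum over Rpl3 and its 4 copies was 1513 CPM ± 110 in the control and 1533 CPM ± 68.9 with Prrx1 (log2 0.02, adjusted p = 0.926). Rpl3 passed the test and the sum did not.

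**Figure D2:**
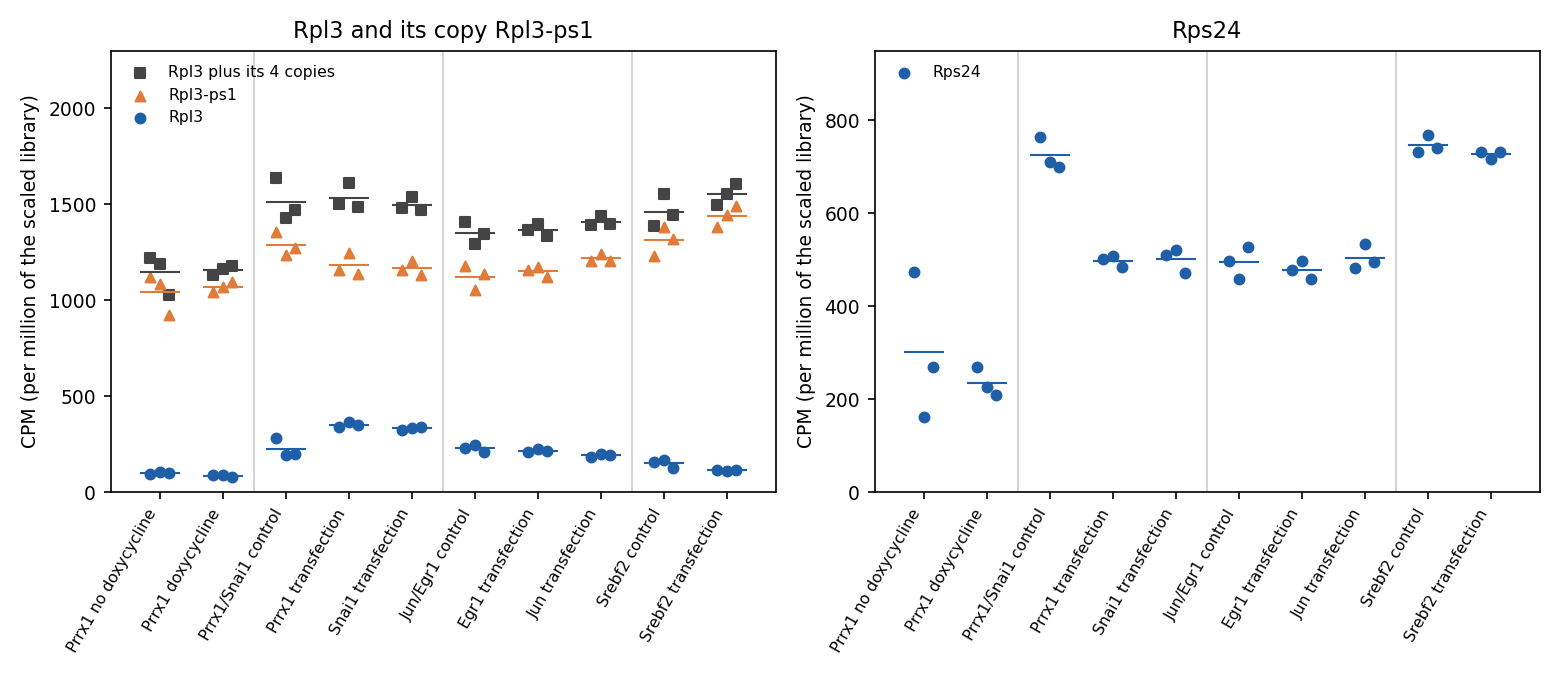
CPM of Rpl3, of Rpl3-ps1 and of Rpl3 with its 4 near copies (left) and of Rps24 (right) in each library, by group; points are libraries, short lines group means, and upright lines part the experiments, which were scaled separately. Rps24 is lower in all 6 Prrx1 and Snai1 libraries than in their 3 controls, and the groups of the sum with copies, unlike those of Rpl3 alone, overlap between the Prrx1 libraries and their controls.

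Rpl34 changed its direction with the counting: alone it was at 21.0, 15.3 and 14.5 CPM in the control and 24.4, 24.9 and 27.8 CPM with Prrx1 (1.52-fold higher, adjusted p = 0.0205), and with copies it was 236 CPM ± 30.3 against 184 CPM ± 13.9 (log2 -0.36, adjusted p = 0.0426). Rpl15 fell alone (log2 -0.44, adjusted p = 0.0025) but not with copies (log2 -0.14, adjusted p = 0.379). In 8 of the 14 called members the copies held at least 1% of the summed counts, so that adding them could move the value, and 4 of these 8 kept their call and direction. Rps9, Rpl18, Rpl41 and Rps21 rose too, by less, and were named after their values were seen.

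Rps9, a small subunit protein that binds early in assembly, was at 744, 550 and 591 CPM in the control and at 885, 862 and 885 CPM with Prrx1 (1.40-fold higher, adjusted p = 0.0122). Rpl18 was at 732, 569 and 626 against 914, 859.7 and 876 CPM (1.38-fold higher, adjusted p = 0.0092), and Rpl41 at 1201, 939.6 and 964 against 1463, 1386 and 1346 CPM (1.35-fold higher, adjusted p = 0.0143). In each of these 3 the groups did not overlap, with control library 1 the nearest to the Prrx1 libraries. Rps16 was at 582, 374 and 389.5 CPM in the control and at 717, 681 and 669 CPM with Prrx1, and rose 1.54-fold alone (adjusted p = 0.039) and by log2 0.47 with copies (adjusted p = 0.0433).

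Rpl35a, another gene mutated in that anaemia, rose 1.55-fold (adjusted p = 0.0021) from 39.7, 35.3 and 35.4 CPM to 58.7, 61.3 and 50.5 CPM, and by log2 0.36 with copies (adjusted p = 0.0224). Rpl39, which lines the exit tunnel, fell 1.37-fold (adjusted p = 0.0288) from 437, 353 and 318 CPM to 289.9, 270.5 and 249 CPM. Rpl6 fell 1.21-fold and Rpl21 1.26-fold. Of the stalk genes, Rplp0 was lower without passing (log2 -0.24, adjusted p = 0.0765), and Fau was higher without passing (log2 0.43, adjusted p = 0.0547).

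The median member was at log2 0.09 with Prrx1 (large 0.04, small 0.15), against 0.00 over all genes and 0.15 over the 465 other short coding genes. Groups did not overlap in 30 members, or 38.5%, against 19.1% of all genes, and 17 of the 30 were higher. Control library 1 decided how many were called: without it 56 members passed, 46 higher and 10 lower, with a median of 0.24, and without any other single library 5 to 13 passed. The share of all genes that passed in these fits was not set beside these counts. They show only how far the calls hang on that library. Counts of mitochondrially encoded genes were lower with Prrx1, 1.07% to 1.47% of all counts against 2.02% to 2.43% in the control, and 11 of the 13 such genes fell. The part of either in the result was not tested.

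Transfection of Snai1 was compared with the same 3 control libraries, so its values are not independent of those for Prrx1. It changed 13 members, 11 higher and 2 lower, where 1.62% of the 13110 genes passed (1.14% higher, 0.481% lower). Rps24 fell 1.45-fold (adjusted p = 0.0007), to 511, 522 and 471 CPM, and its near copy again had almost no counts.

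Fau, whose small subunit protein is released from a ubiquitin-like fusion, rose 1.52-fold with Snai1 (adjusted p = 0.0176), from 701, 489 and 518 CPM to 869, 856 and 865 CPM, and by log2 0.55 with copies (adjusted p = 0.0125). Rps16 rose 1.57-fold (adjusted p = 0.0426) to 679, 722 and 714 CPM and Rpl41 1.43-fold (adjusted p = 0.0093) to 1491, 1499 and 1446 CPM. Rps16 also rose with copies, whereas the copies of Rpl41 had 0 counts and could not move it. Rpl3 was 1.47-fold higher alone (adjusted p = 0.0344) and at log2 -0.01 with copies (adjusted p = 0.946). The other fall was Rpl15, at log2 -0.32 (adjusted p = 0.0239), and at -0.02 with copies (adjusted p = 0.923).

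Of the 13 members called with Snai1, the copies held at least 1% of the summed counts in 9, and 3 of these 9 kept their call with copies added. The median member was at log2 0.17 (large 0.11, small 0.25), against 0.18 over the other short coding genes, and groups did not overlap in 38 members, or 48.7%, against 20.5% of all genes. Without control library 1, 52 members passed, 47 higher and 5 lower, and without any other single library 2 to 8. Here too the share of all genes passing in these fits was not set beside the counts. Mitochondrially encoded genes were at 1.05% to 1.34% of counts, below the control, and 12 of the 13 fell. Compared with each other, Snai1 and Prrx1 libraries differed in no member by edgeR or by DESeq2, where 0.252% of all genes passed edgeR's test. At an unadjusted p under 0.05 there were 2 members, both higher with Snai1, where 5.46% of all genes were under it.

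Egr1 left no member past the threshold, by edgeR or DESeq2, where 0.323% of the 14539 genes tested passed edgeR's test. Members ranged from log2 -0.21 to 0.15 with a median of -0.05, the same as the median of the other short coding genes, -0.05. At an unadjusted p under 0.05 there were 4 members, all lower, where 10.2% of all genes were under it. Egr1 library 3 also stood out in part of the epithelial list. Krt18 was at 125 TPM against 2.53 and 2.44 TPM in libraries 1 and 2, and Krt8 at 25.4 against 3.77 and 2.99 TPM. Epcam was at 30.7 TPM against at most 1.96 TPM in every other library of the series. Cdh1 (0.414 against 0.372 and 0.600 TPM) and Cldn4 (0.514 against 0.603 and 0.218 TPM) were not raised in library 3. Without that library no member passed either, and the median was -0.03. With limma on TPM, 5 members passed, all higher, and the median was 0.09. The share of all genes passing by limma was not set beside this count. Rps24 was at 478, 497 and 459 CPM with Egr1 and at 498, 459 and 528 CPM in the control, and these groups overlapped.

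Jun lowered 2 members, Rpl31 and Rpl3, where 0.956% of the 14539 genes passed (0.454% higher, 0.502% lower). Rpl31, which lies at the mouth of the exit tunnel, was at 416, 448 and 437 CPM in the control and at 343, 381.5 and 363 CPM with Jun (1.2-fold lower, SE 0.05, edgeR adjusted p = 0.0315), with no overlap. With copies it was at log2 -0.07 (adjusted p = 0.552). Rpl3 was 1.19-fold lower (adjusted p = 0.0475), and its sum with copies was at log2 0.06 (adjusted p = 0.513), so neither call was kept. Leaving out any 1 of the Jun libraries also ended both calls. The median member was at -0.08 by edgeR, beside -0.10 over the other short coding genes. With limma on TPM, 17 members passed as higher and 2 as lower, and the median was 0.07, of the opposite sign. The 0.956% of all genes is for edgeR, and no such share was set beside the limma counts. Jun and Egr1 libraries differed in no member by edgeR or DESeq2, where 0.44% of genes passed edgeR's test, with 1 higher and 3 lower with Jun at an unadjusted p under 0.05, where 11.8% of all genes were under it.

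**Figure D3:**
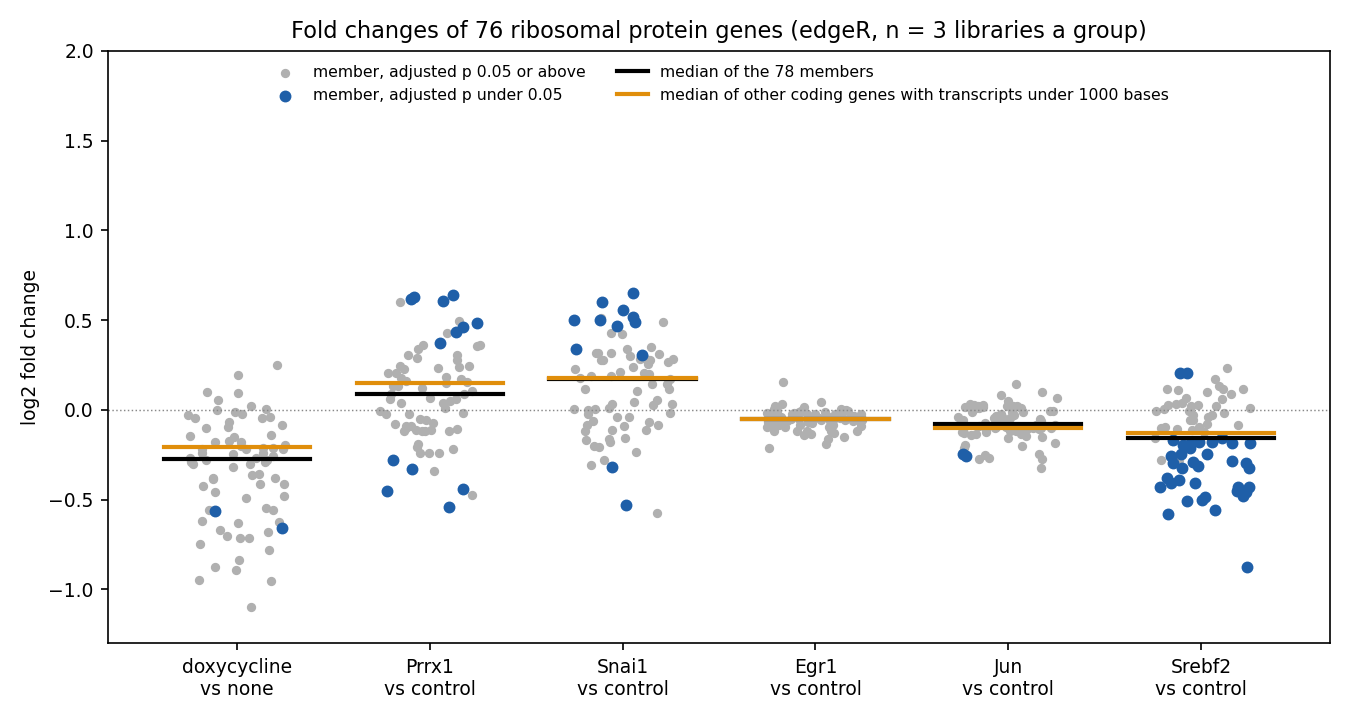
Log2 fold change of 76 of the 78 members in the 6 comparisons with a control. Blue points passed edgeR's test and grey points did not. Black lines mark the median of all 78 members, whatever their length. Orange lines mark that of the other coding genes with transcripts under 1000 bases. The medians run from -0.27 with doxycycline to 0.17 with Snai1, and the lower calls stand mainly in the Srebf2 comparison.

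Srebf2, an activator of cholesterol synthesis genes, gave the most calls. Of the 78 members 36 fell and 2 rose, where 17.3% of the 12730 genes tested passed (8.63% higher, 8.68% lower). The falls were in both subunits, 23 of 46 large and 13 of 32 small, and Rpl28, Rpl36a, Rps16 and Fau were among the larger ones. The median member was at log2 -0.16 (large -0.17, small -0.11), beside 0.01 over all genes and -0.13 over the 442 other short coding genes, of which 115 passed. Groups did not overlap in 44 members, or 56.4%, against 35.5% of all genes.

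These 4 falls were kept with copies added. Rpl28 was at 491, 530.2 and 449.9 CPM in the control and at 297, 285 and 220.3 CPM with Srebf2 (1.84-fold lower, adjusted p = 0.0072), and its sum with copies fell by log2 -0.47 (adjusted p = 0.0004). Rps16, whose tail reaches the tRNA in the small subunit, was at 489.7, 529 and 425 CPM against 308, 324 and 349 CPM (1.47-fold lower, adjusted p = 0.0005), with log2 -0.47 in the sum. Its transcripts moved apart. The mean of the coding transcript went from 343 to 78.2 TPM with Srebf2, and those of its intron-retaining transcripts from 646 to 379 and from 363 to 827 TPM. Rpl36a, which takes part in the tRNA exit site, was at 233, 254 and 219.9 CPM against 153, 151 and 169.5 CPM (1.49-fold lower, adjusted p = 2.52e-05), with log2 -0.24 in the sum. None of these groups overlapped.

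Fau was at 748, 794.5 and 721 CPM in the control and at 547, 532 and 514 CPM with Srebf2, and fell 1.42-fold (adjusted p = 2.19e-05) alone and by log2 -0.17 with copies (adjusted p = 0.0356). The stalk genes moved apart. Rplp1 was at 1001, 1107 and 935 CPM in the control and at 732, 706 and 710.5 CPM with Srebf2, and fell 1.42-fold (adjusted p = 7.06e-05). Its partner Rplp2 was at log2 -0.11 (adjusted p = 0.236), and Rplp0 at 0.04 (adjusted p = 0.68). The difference between these genes was not tested.

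Rpl11, the Mdm2-binding protein, fell 1.35-fold with Srebf2 (adjusted p = 8.61e-05), from 441, 489 and 430.5 CPM to 336.5, 338 and 337 CPM, while Rpl5 was at 44.1, 41.6 and 44.5 CPM against 39.6, 38.5 and 44.7 CPM and did not pass. Rpl38 fell 1.35-fold (adjusted p = 0.00147). Rps9 fell by 0.32 on the log2 scale (adjusted p = 0.000759), from 729, 764 and 671 CPM to 577.5, 574 and 576 CPM. Rps24, which fell with Prrx1 and Snai1, was at 732, 769 and 739.9 CPM in the control and 731, 717 and 732 CPM with Srebf2, and did not pass.

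The members that rose with Srebf2 were Rpl27 and Rpsa. Rpsa was at 1584, 1741 and 1764 CPM in the control and at 1802, 1932 and 2127 CPM with Srebf2 (1.15-fold higher, adjusted p = 0.0364). It held 99.9% of the counts summed with its copies. Rpl27 was at 484, 521 and 549 against 551, 588 and 654 CPM (1.15-fold higher, adjusted p = 0.0355), and with copies at log2 0.11 (adjusted p = 0.164). In both the lowest Srebf2 library lay just above the highest control library, and Rpsa kept its call in 1 of 6 fits without a library.

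Of the 38 members called with Srebf2, 19 kept their call in all 6 fits that left out a library. The copies held at least 1% of the summed counts in 22 of the 38, and 12 of these 22 kept their call with copies added. Among the 12 members with at least 90% unique words, 4 fell and none rose. These 12 include Rpl35a and Rpl30, most of whose summed counts lay on copies. The calls for Rpl10, Rpl3 and Rps12, for example, were lost with copies, and the sums of these 3 had the opposite sign. The fragment length was 221 to 226 bases with Srebf2 and 228 to 246 in the control. Mitochondrially encoded genes made up 3.63% to 3.93% of counts against 2.90% to 3.20%, and 8 of 13 rose. The part of either in the result was not tested.

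**Figure D4:**
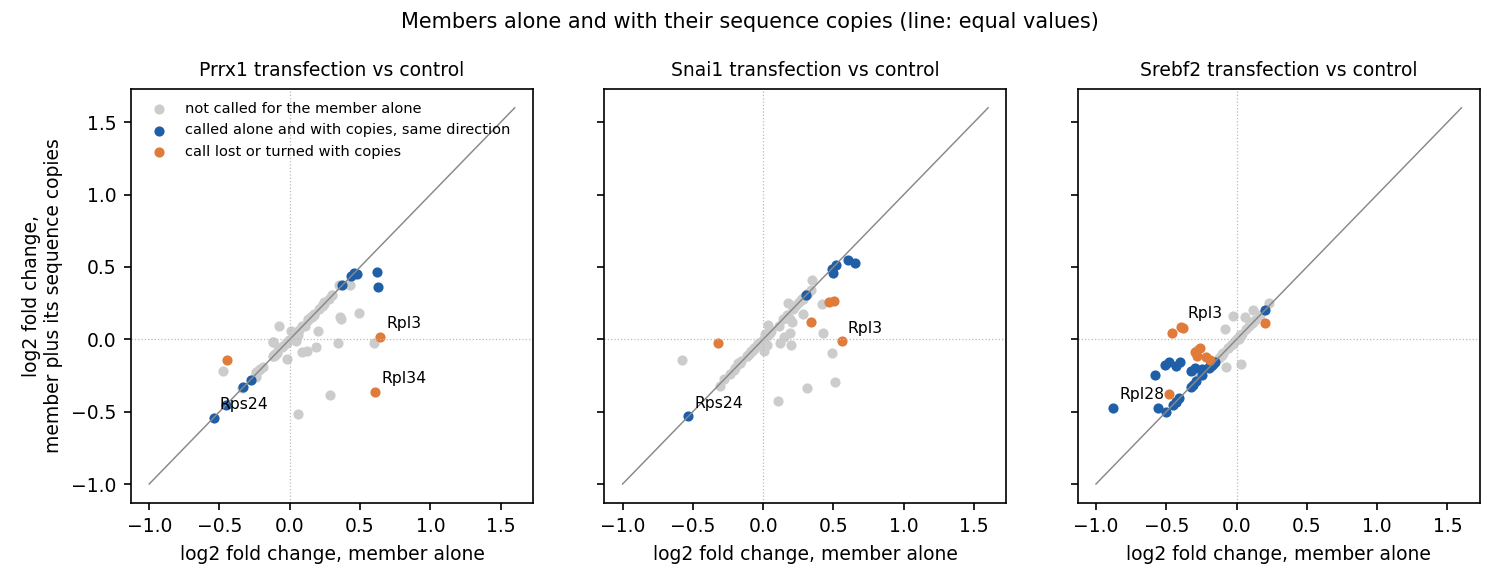
Log2 fold change of 76 of the 78 members alone (horizontal axis) and with the counts of their near copies added (vertical axis) in the Prrx1, Snai1 and Srebf2 comparisons; the diagonal marks equal values, blue points kept their call, orange points lost it or turned, and grey points had none. Rpl3 lies off the diagonal in all 3, at 0.64, 0.56 and -0.39 alone and at 0.02, -0.01 and 0.09 with copies, while Rps24, whose copy has almost no counts, lies on it with Prrx1 and Snai1.

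Calls were also set side by side between experiments with separate controls. Among all 78 members 36 (46.2%) fell with Srebf2. Of the 9 members higher with Prrx1, 5 (55.6%) were among the 36 lower with Srebf2 (13.9%), among them Rps16, Rps9, Rpl3 and Rpl34. Both members that fell with doxycycline, Rpl28 and Rpl11, were among the 36 too (100% and 5.56%). With so many members lower with Srebf2, neither overlap is read as a result. The change with induction was also set against the change with transfection of Prrx1, over 12 libraries. It differed in 5 members, all lower under induction, where 4.02% of the 15218 genes passed (1.98% higher, 2.04% lower): Rpl34 (log2 difference -1.07, SE 0.28, edgeR adjusted p = 0.0481), Fau (-1.07, SE 0.26, adjusted p = 0.0377), Rps18 (-0.92, SE 0.20, adjusted p = 0.0138), Rpl11 (-0.91, SE 0.20, adjusted p = 0.0159) and Rpl3 (-0.84, SE 0.17, adjusted p = 0.0093). With copies added none of these 5 passed, and the estimates for Rpl34 and Rpl3 were 0.06 and -0.01. The median member was at -0.37, beside -0.34 over the 551 other short coding genes.

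Of the 25 genes kept apart, 18 or 19 were tested in each comparison. With Srebf2 5 of 18 passed (27.8%, where 17.3% of all genes did), and with Prrx1 2 of 19 (10.5%, where 3% did). With doxycycline 1 of 18 passed (5.56%, where 6.19% of all genes did) and with Snai1 1 of 19 (5.26%, where 1.62% did). With Egr1 and Jun 0 passed, where 0.323% and 0.956% of all genes did. Rpl36al, an intron-less copy of Rpl36a that is expressed as a ribosomal protein, fell with doxycycline (log2 -0.79, adjusted p = 0.0238), from 82.2, 53.9 and 51.6 CPM to 39.2, 35.7 and 34.0 CPM. Rps12-ps3, identical to Rps12 over the aligned 384 bases, fell with Prrx1 (log2 -0.76, adjusted p = 0.0001) and Snai1 (log2 -0.66, adjusted p = 0.0003), from 1034, 878 and 916 CPM to 586, 548 and 534 with Prrx1. Rps27rt, with 7.6% unique words, fell with Prrx1 (log2 -1.41, adjusted p = 0.0365). Whether reads of such genes belong to them or to the member cannot be told from these counts.

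With Srebf2 the S6 kinase genes Rps6ka3 and Rps6ka6 rose slightly (log2 0.23, adjusted p = 0.0184, and log2 0.37, adjusted p = 0.018). Rpl22l1, the paralog of Rpl22, fell (log2 -0.37, adjusted p = 0.0033), from 54.7 CPM ± 5.7 to 42.2 CPM ± 2.5, Rpl39l fell (log2 -0.25, adjusted p = 0.0263), and Rpl10-ps3 rose (log2 0.39, adjusted p = 0.0137) while Rpl10 fell (log2 -0.46, adjusted p = 0.0004).

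Other genes of the translation machinery were read from lists in the same fits, to be set against the 8.63% of all genes that rose and the 8.68% that fell with Srebf2. With Srebf2, 17 of 53 genes of ribosome assembly and rRNA synthesis fell (32.1%) and none rose (median log2 -0.09), with Gar1, a pseudouridylation particle protein, at -0.55, Rrp9 at -0.51, Rrs1 at -0.44 and Fbl, the rRNA methyltransferase fibrillarin, at -0.42. Of the 78 mitochondrial ribosomal protein genes 13 fell (16.7%) and 6 rose (median -0.07), and of 34 initiation and release factors 6 fell (17.6%) and 5 rose. Of 24 TOR pathway genes 4 passed, all lower (16.7%), with Ddit4 at -0.38 and Akt1s1 at -0.37. Of all genes 17.3% passed in either direction and 8.68% fell. Among 18 translation factors and other TOP mRNAs 3 rose (Pabpc1 at 0.23, Nap1l1 at 0.22 and Tpt1 at 0.20) and 2 fell. Of 20 genes of p53 and its targets 7 fell (35%), among them Btg2 at -0.51, Bbc3 at -0.48 and Bax at -0.42.

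With Prrx1 and Snai1, compared with their shared control, few of these genes passed. Tpt1 and Pabpc1 fell (log2 -0.47 and -0.30 with Prrx1, -0.48 and -0.25 with Snai1). Eif6, which keeps free large subunits apart from small ones, rose (0.39 and 0.43), as did the assembly genes Gar1 (0.48 and 0.51) and Rrs1 (0.37 and 0.41). Of the 20 p53 genes, 3 rose with Prrx1 (Bbc3 at 0.54, Bax at 0.50 and Aen at 0.36), or 15%, where 1.94% of all genes rose. With Snai1 1 rose (Phlda3 at 0.55), or 5%, where 1.14% of all genes did. With Jun, Pmaip1 (-1.31), Eda2r (-0.58) and Mdm2 (-0.53) fell, or 15% of the 20, where 0.502% of all genes fell. With Egr1, Mdm2 (-0.37) and Ccng1 (-0.22) fell, or 10%, where 0.323% of all genes passed in either direction, while no member passed with Egr1. With doxycycline 2 of the 20 rose (Trp53inp1 at 0.63 and Eda2r at 0.46), or 10%, where 3.45% of all genes did.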

How the data were processed

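Bulk mRNA of 30 libraries was measured. The authors deposited, per library, kallisto 0.43.0 estimated counts and TPM for each transcript (mm10), per the submitters' processing notes. Annotation release, read layout and strand were not given in the sources used here; transcript versions matched GENCODE M21 for 116816 of 118491 targets, and the 1673 not matched, with 0.605% to 0.694% of counts, were left out (2 further targets are added sequences). Estimated counts were summed per gene, rounded and tested with edgeR 4.0.16 (quasi-likelihood, TMM scaling, filterByExpr with minimum count 10 and total 15), with the groups of an experiment fitted together and Benjamini-Hochberg adjustment over all tested genes, two-sided, at 0.05. CPM are counts scaled to the TMM-adjusted total of the library in that experiment's fit; TPM serve for order between genes. The fit was tested on simulated data. Depth was 7996355 to 37068611 estimated counts per library.

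Genes were named by rule: up to 5 called members in each direction per comparison, the 5 highest, lowest and most variable members, the stalk genes, Rpsa, Fau, Rps27a, Rpl5 and Rpl11, and up to 4 called genes of each other list. The members and lists were chosen with earlier results of these data known. Alternatives were DESeq2 1.42.0 and its size factors, TMM without the members, limma 3.58.1 on log2(TPM + 1), no filter, at least 5 CPM in 3 libraries, all libraries in 1 fit, a replicate block, coding transcripts only, same-named pseudogenes added and each library left out. Adding all near copies by sequence was chosen after seeing the data. Counts cover all 78 members, but results on some genes are not reported here. No 2 libraries of a group agreed within sampling noise.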

Additional observations from a re-analysis of the deposited data

Results flagged for a closer look

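The change of 5 members with induction of Prrx1 by doxycycline differed from their change with transfection of Prrx1, by a test of the difference itself (edgeR, adjusted over 15218 genes, 12 libraries). All 5 differences were negative, meaning a lower change under induction: Rpl34 at log2 -1.07, Fau at -1.07, Rps18 at -0.92, Rpl11 at -0.91 and Rpl3 at -0.84. The call for Rpl3 was kept in all 12 fits that left out a library, that for Rps18 in 11, for Rpl11 in 9, for Rpl34 in 3 and for Fau in 2. With the counts of near copies added, none of the 5 passed.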

How the results depend on the processing

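The number of called members moved with the counting, the fit and the libraries used. The share of all genes passing was not set beside the counts under these other settings. The counts therefore show only how far the calls depend on the processing. For doxycycline (2 called) it was 7 with DESeq2, 0 with limma on TPM, 11 with no filter on low counts, 1 with coding transcripts only, 4 with same-named pseudogenes added and 28 with all libraries in 1 fit. For Prrx1 (14) it was 26 with DESeq2, 30 with limma (20 higher and 10 lower) and 6 with all libraries, and for Snai1 (13) 29, 29 and 6, and 22 with no filter. For Egr1 (0) limma gave 5. For Jun (2) DESeq2 gave 7, limma 19 (17 higher and 2 lower), the stricter filter 4, same-named pseudogenes and sequence copies 0 each, and all libraries 0. For Srebf2 (38) all libraries gave 9. For induction minus transfection (5) DESeq2 gave 13, the stricter filter 9, coding transcripts only 0, sequence copies 3 and all libraries 24. Under RLE size factors and TMM without the members, counts were within 1 of those reported. Same-number libraries did not pair (correlations of deviations from -0.185 to 0.0953); a replicate block gave 8 calls for doxycycline, 17 for Prrx1 and for Snai1, 1 for Jun, 41 for Srebf2 and 15 for the difference of induction and transfection. Leaving out 1 library gave 1 to 7 calls for doxycycline, 5 to 56 for Prrx1, 2 to 52 for Snai1, 0 to 0 for Egr1, 0 to 1 for Jun, 23 to 35 for Srebf2, 0 to 0 for Snai1 against Prrx1 and for Jun against Egr1, and 2 to 15 for the difference, where the highest came without library 2 of the cells without doxycycline. With same-named pseudogenes added, the share of counts was 2.9995% with and 3.30% without doxycycline, 5.41% with Prrx1, 5.58% with Snai1, 5.30% in their control, 4.65% with Egr1, 4.62% with Jun, 4.66% in their control, 5.27% with Srebf2 and 5.63% in its control; with sequence copies it was 3.48%, 3.83%, 6.12%, 6.30%, 6.06%, 5.26%, 5.24%, 5.26%, 6.13% and 6.42% in that order. Without mitochondrially encoded and delivered genes in the total it was 5.10% with Snai1 and 4.83% with Srebf2. Among the 30 named gene results, the sign turned for Rpl34 with Prrx1 (log2 -0.36 with either kind of copy). It also turned for Rpl3 with Snai1 (-0.0148 with same-named pseudogenes, -0.0146 with sequence copies) and with Jun (0.0630 and 0.0628). The same held for Rpl34 in the difference (0.0671 and 0.0631). Beyond the named results, 4 of the 38 members called with Srebf2 had the opposite sign with sequence copies added. Of these 30 named gene results, DESeq2 kept 30 and 10 were kept in every fit without a library. Limma on TPM kept 19, coding transcripts only 18 and all libraries in 1 fit 15. With sequence copies added 16 were kept and 4 reversed. The cause of the losses was not tested. The doxycycline libraries were the shallowest, with 7996355 counts in the lowest, which limits the precision of members with few counts there.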

Other observations

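Some members, chosen after their values were seen, had levels in the Prrx1/Snai1 control that lay near those of the Srebf2 control, and levels in the Prrx1 and Snai1 libraries that lay near those of the Jun/Egr1 control. These experiments were scaled separately, so the levels are set side by side without a test. Rps24 was at 725 CPM ± 34.0 (SD, n = 3) in the Prrx1/Snai1 control and at 747 CPM ± 19.7 in the Srebf2 control, but at 498 CPM ± 12.5 with Prrx1, 501 CPM ± 26.9 with Snai1 and 495 CPM ± 34.7 in the Jun/Egr1 control. Rps12-ps3 was at 943 CPM ± 81.5 in the Prrx1/Snai1 control and 967 CPM ± 47.7 in the Srebf2 control, and at 556 CPM ± 27 with Prrx1, 598 CPM ± 10.9 with Snai1 and 619 CPM ± 53 in the Jun/Egr1 control. The library to library spread within each of these groups was smaller than the distance between the 2 levels. Rpl36a had the lower level where the others had the higher, at 223 CPM ± 58.3 in the Prrx1/Snai1 control and 236 CPM ± 17.2 in the Srebf2 control, against 337 CPM ± 13.9 with Prrx1 and 332 CPM ± 9.29 in the Jun/Egr1 control. These Rpl36a levels leave out its copies, and it held 14.9% to 100% of the summed counts between libraries. Its SD of log2 group means over the transfection groups was 0.40 alone and 0.11 with copies added.

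Fau had 1 transcript of 472 bases that set the doxycycline experiment apart. It was at 1067 TPM ± 181 with and 1571 TPM ± 547 without doxycycline, at 97.4 TPM ± 36.9 in the Prrx1/Snai1 control, and listed at 0 in the other 21 libraries.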
